A study of Zea mays with 6 samples.

Results

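The genes described here are linked to the cellulose of secondary cell walls in maize. They comprise the cellulose synthases CesA10 (Zm00001d032776), CesA11 (Zm00001d043477) and CesA12 (Zm00001d020531), and brittle stalk2 (bk2, Zm00001d047276), a COBRA-like gene. They were chosen by their identifiers, and all 4 were among the 44146 genes listed in each library. Their names were given with the identifiers: the deposited files hold identifiers alone, and the RefSeq gene table used for names (Zm-B73-REFERENCE-NAM-5.0, not the build of the files) lists all 4 symbols but holds 0 of the 44146 identifiers. The names were therefore not checked against an annotation of the build used, and no coordinates are given.

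Gene expression was measured by RNA sequencing of leaf sheath in untreated maize seedlings that had reached the stage of 3 leaves; the sheath, which clasps the stem below the leaf blade, was taken from leaf 2. Wild-type plants (WT) gave 3 libraries, and 3 more came from plants lacking the long noncoding RNA GARR2 (GARR2KO), made from total RNA and read as 150 bp pairs. The labels call the replicates biological and give neither the way the knockout was made nor the number of lines used, nor whether the WT plants were siblings of the mutants. The comparison asks how the sheath transcriptome differs when GARR2 is lost, and only the 4 wall genes are followed here.

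Cellulose is spun into the wall at the plasma membrane by rosette-shaped complexes built of several different cellulose synthases. The complexes of primary walls, laid down while cells grow, and those of secondary walls, laid down in xylem and fibres after growth stops, use different isoforms. CesA10, CesA11 and CesA12 belong to the secondary wall class, and in Arabidopsis the corresponding isoforms are all needed together for a working complex. The bk2 product is a COBRA-like protein, of a family held at the cell surface by a lipid anchor, and maize plants without it have stalks and leaves that snap easily and have less cellulose in their walls. Leaf sheaths owe much of their stiffness to fibres and vascular strands with such walls.

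All 4 genes were well expressed in the sheath. The values were taken as FPKM, reads or read pairs per kilobase of gene scaled to library size. On this scale, levels can be set against each other between genes. In every library bk2 was the highest and CesA12 the lowest. The level of bk2 was 92.5 ± 6.58 FPKM in WT and 84.3 ± 4.14 FPKM in GARR2KO (SD, n = 3), above 95.6 to 96.2% of the genes listed above 0 in the same library. CesA12 had 34.3 ± 2.99 FPKM in WT and 30.7 ± 1.30 FPKM in GARR2KO (SD, n = 3), still above 86.5 to 88.6% of those genes. CesA11 and CesA10 lay between them. Their WT ranges overlapped, although CesA11 was above CesA10 within each of the 3 WT libraries. In GARR2KO the ranges were apart, with every CesA11 value above every CesA10 value. Reads could be recovered from the spacing of the FPKM values: each cellulose synthase had 2235 to 5195 per library and bk2 had 2894 to 3649. The counting error of a single value was 1.39 to 2.12% (Poisson, each recovered read taken as independent). The SD between libraries of a genotype was 4.22 to 8.73% of the mean. The same spacing gave gene lengths of 3678, 3577 and 3816 bp for CesA10, CesA11 and CesA12 and 1818 bp for bk2. Cellulose synthases resemble each other in sequence, and the sources used here do not say how reads matching more than 1 gene were assigned.

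**Figure D1:**
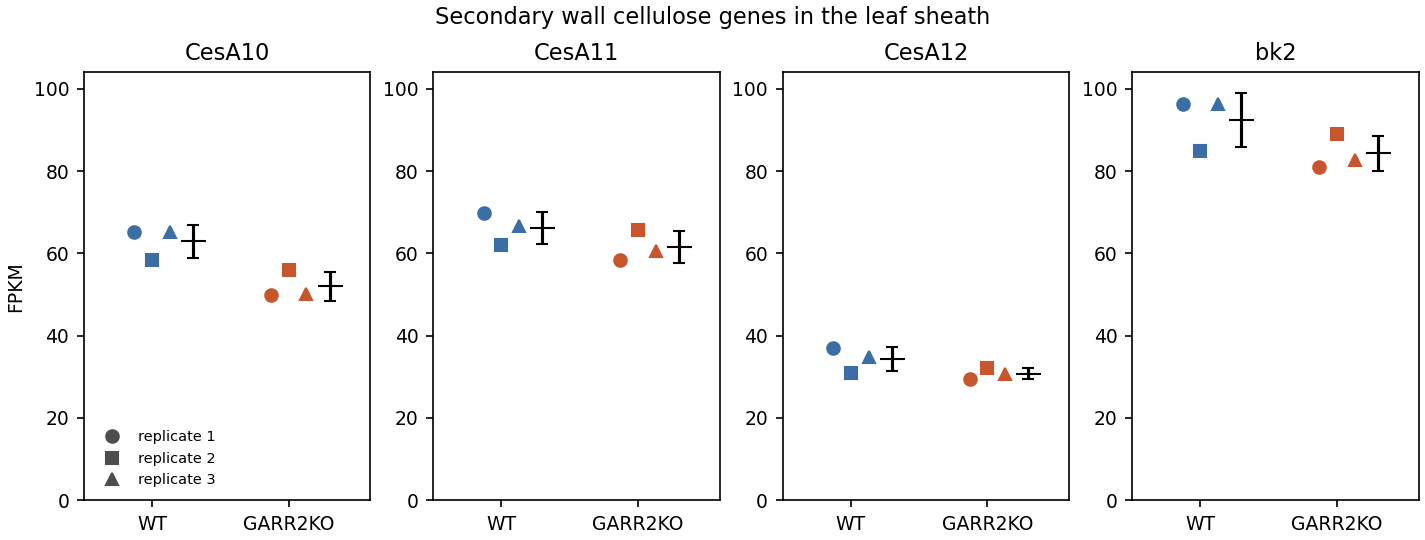
Expression of the 4 genes in the leaf sheath, in FPKM on an axis from 0. Each symbol is 1 library, its shape gives the replicate number, and the black bars are the mean ± SD of 3 libraries. The WT and GARR2KO values are apart for CesA10 (at least 58.3 against at most 56.0 FPKM) and overlap for the other 3 genes.

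CesA10 fell in the knockout, and it was the single member of the 4 that passed the test, which 44.2% of all tested genes passed and 24.1% passed as falls. Its values in WT were 65.2, 58.3 and 65.2 FPKM in replicates 1 to 3. In GARR2KO they were 49.8, 56.0 and 50.2 FPKM. The groups did not overlap, but WT replicate 2 and GARR2KO replicate 2 lay within 2.28 FPKM of each other. The mean was 62.9 ± 3.96 FPKM in WT and 52.0 ± 3.51 FPKM in GARR2KO (SD, n = 3), 17.3% lower. The log2 fold change was -0.27 (SE 0.07, 95% interval -0.42 to -0.12, limma-trend on log2(FPKM + 1), Benjamini-Hochberg adjusted p = 0.0109 over 21531 genes). CesA10 was called in the same direction under all 16 other settings tried, with log2 fold changes from -0.32 to -0.19 and adjusted p from 0.000949 to 0.0416.

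The other 3 genes had lower means in GARR2KO, and none of these differences passed the test. CesA11 had 69.7, 62.1 and 66.8 FPKM in the WT libraries and 58.3, 65.7 and 60.5 FPKM in the GARR2KO libraries. Its groups overlapped, with GARR2KO replicate 2 above WT replicate 2. Its means were 66.2 ± 3.83 and 61.5 ± 3.80 FPKM (SD, n = 3), with a log2 fold change of -0.10 (SE 0.06, 95% interval -0.25 to 0.04, limma adjusted p = 0.21).

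CesA12 had 36.9, 31.0 and 34.9 FPKM in WT and 29.5, 32.1 and 30.6 FPKM in GARR2KO. Again GARR2KO replicate 2 was above WT replicate 2, while the other libraries kept to their sides. The log2 fold change was -0.15 (SE 0.07, 95% interval -0.31 to 0.01, limma adjusted p = 0.111). For bk2 the values were 96.3, 84.9 and 96.3 FPKM in WT and 81.1, 89.0 and 82.8 FPKM in GARR2KO. The same pair of libraries overlapped. Its log2 fold change was -0.13 (SE 0.06, 95% interval -0.28 to 0.01, limma adjusted p = 0.128). The intervals of CesA12 and bk2 include both no change and the fall estimated for CesA10, and that of CesA11 includes no change and ends just short of that fall.

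WT replicate 2, the lowest WT library for every member, decided the calls of CesA12 and bk2. Without it, CesA12 had a log2 fold change of -0.22 (limma adjusted p = 0.0185) and bk2 one of -0.19 (limma adjusted p = 0.0222), so that 3 of the 4 genes fell. In that fit 41.1% of all tested genes passed and 22.9% fell. CesA11 did not pass there either, at -0.15 (limma adjusted p = 0.0877). The size of the 3 uncalled differences also moved with the scaling of the libraries. With libraries scaled by summed FPKM, the log2 fold changes were -0.02 for CesA11, -0.07 for CesA12 and -0.05 for bk2, against -0.19 for CesA10.

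**Figure D2:**
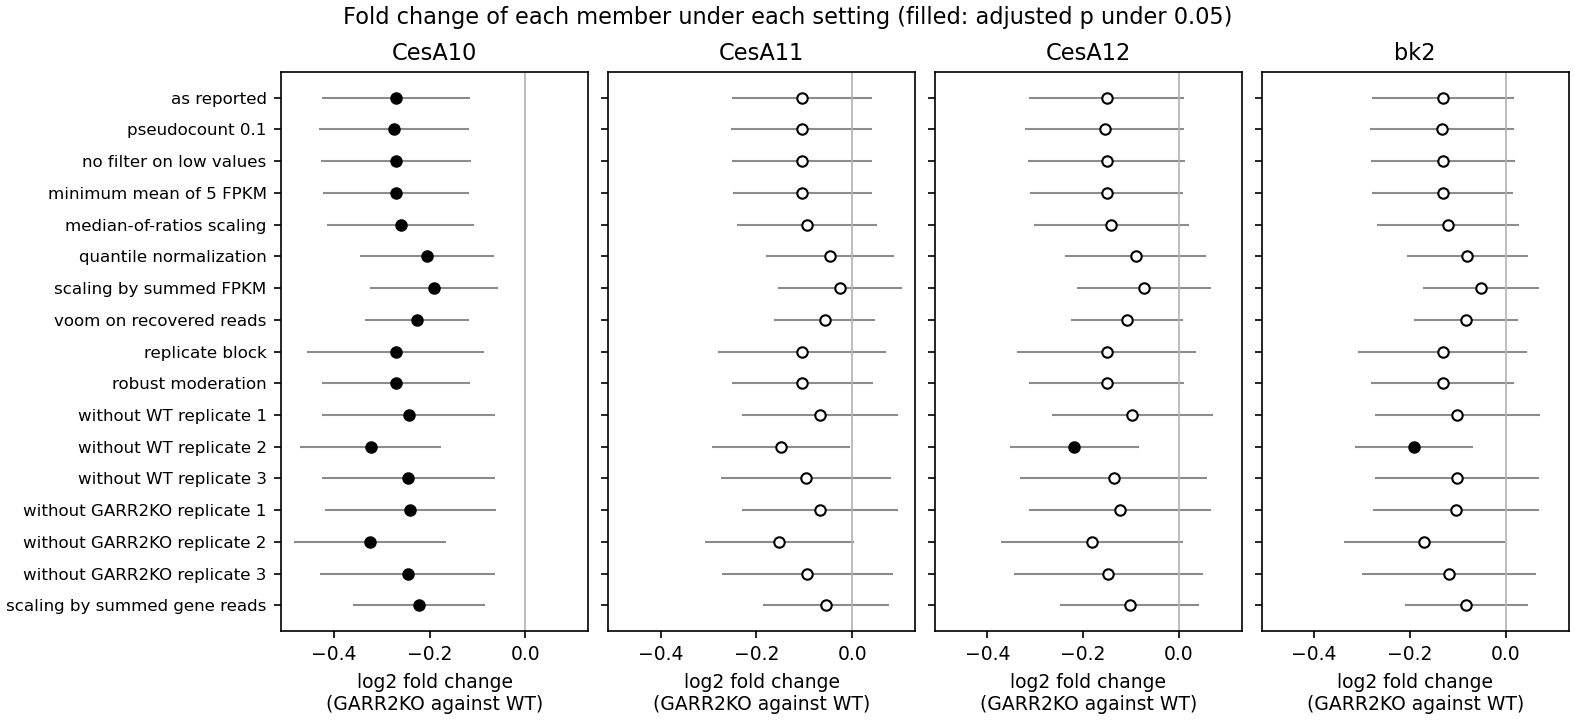
Log2 fold change of each gene, GARR2KO against WT, on the log2(FPKM + 1) scale (for voom, on a log2 scale of reads relative to library size), as reported and under 16 other settings; points are estimates, lines are 95% intervals and filled points have an adjusted p under 0.05. CesA10 is filled throughout, from -0.32 to -0.19, and CesA12 and bk2 only without WT replicate 2.

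The count of called members has to be read against a transcriptome in which changes were frequent. A count of 1 in 4, set beside the 44.2% of 21531 tested genes that passed and the 24.1% that fell, is close to the background and is no result about these genes as a group. Among the 2406 tested genes whose mean lay between those of CesA12 and bk2 (32.5 to 88.4 FPKM), 58.4% passed and 35.7% fell. Their median log2 fold change was -0.06. Groups without overlap, as seen for CesA10, were found for 56.2% of tested genes, and for 29.4% with GARR2KO lower. The members' median log2 fold change was -0.14, against -0.01 over all tested genes, and the fold change of CesA10 was higher than that of 21.4% of tested genes. In a whole sheath, fewer cells that build secondary walls and less transcript in each such cell cannot be told apart, and markers of xylem or fibre cells could not be matched to identifiers.

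Because library scaling cancels in a ratio of genes within a library, the members were also set against each other. The level of CesA10 relative to CesA11 was 0.935, 0.939 and 0.976 in the WT libraries. It was 0.854, 0.853 and 0.829 in the GARR2KO libraries, lower in all 3 than in any WT library. The means were 0.950 ± 0.022 and 0.845 ± 0.014 (SD, n = 3). In reads, CesA10 held 49.0 to 50.1% of the pair in WT and 46.0 to 46.8% in GARR2KO. The exact (Clopper-Pearson) 95% intervals, which cover counting error only, began at 48.0% or above in the WT libraries. They ended at 47.9% or below in the GARR2KO libraries. The intervals take each recovered read as an independent count. If both reads of a pair were counted, they would be wider, and this narrow gap need not hold. For the other pairs with CesA10 these intervals overlapped between genotypes. With CesA12, the interval of WT replicate 1 began at 61.9% and that of GARR2KO replicate 2 ended at 63.9%. With bk2, the interval of WT replicate 3 began at 56.7% and that of GARR2KO replicate 2 ended at 57.2%.

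CesA10 was also lower against the remaining members. Its ratio to CesA12 was 1.77 to 1.88 in WT and 1.64 to 1.75 in GARR2KO, with no overlap but a narrow gap. Its ratio to bk2 was 0.677 to 0.687 in WT and 0.606 to 0.630 in GARR2KO. The 3 ratios with CesA10 share its values, so they are not independent of each other. How often ratios of other gene pairs separate the genotypes was not examined. Single genes did so for 56.2% of tested genes. The 3 ratios without CesA10 overlapped between genotypes: the mean of CesA11 to CesA12 was 1.93 ± 0.060 in WT and 2.00 ± 0.040 in GARR2KO, that of CesA11 to bk2 was 0.716 ± 0.020 and 0.730 ± 0.0099, and that of CesA12 to bk2 was 0.371 ± 0.011 and 0.365 ± 0.0041 (SD, n = 3). In the exact permutation test, two-sided, each of the 3 ratios with CesA10 had p = 0.1, the lowest value possible with 3 libraries against 3, and 0.2 after Benjamini-Hochberg adjustment over the 6 pairs. The 3 ratios without it had exact permutation p of 0.3 to 0.6. This test cannot reach 0.05 with 3 libraries against 3, so it does not decide whether CesA10 fell more than the other members. The counting error of a ratio in a single library, 1.98 to 2.81%, was about as large as its SD between libraries of a genotype, 0.852 to 3.40% of the mean.

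**Figure D3:**
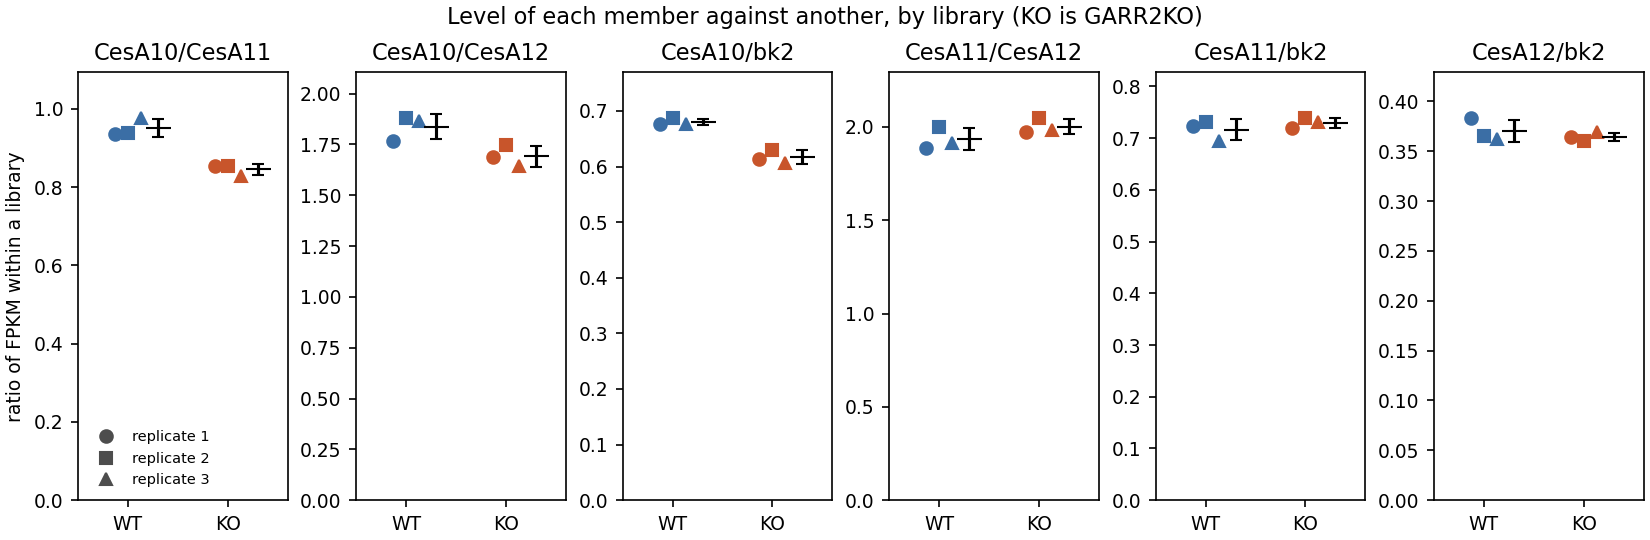
Ratio of the FPKM of each gene to another within a library, on axes from 0, for the 6 pairs of members. Symbols are libraries, shapes the replicate number and black bars the mean ± SD of 3. The 3 ratios with CesA10, which share its values, are lower in every GARR2KO library than in any WT library. The 3 without it overlap.

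Seen as a composition, the summed FPKM of the cellulose synthases was 163 ± 10.6 in WT and 144 ± 8.53 in GARR2KO (SD, n = 3). Both ranges overlapped, running from 151 to 172 FPKM in WT and from 138 to 154 FPKM in GARR2KO. CesA10 made up 37.9 to 39.1% of the sum in WT and 35.5 to 36.4% in GARR2KO. The share of CesA11 was 40.0 to 41.0% in WT and 42.4 to 42.9% in GARR2KO. The share of CesA12 overlapped, at 20.5 to 21.5% and 20.9 to 21.6%. Shares of a sum are not independent, so a lower share of one gene raises the others.

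Within each genotype the 4 genes varied together. In WT all of them were highest in replicate 1, next in replicate 3 and lowest in replicate 2, although replicates 1 and 3 were nearly equal for CesA10 and bk2. In GARR2KO all of them were highest in replicate 2, next in replicate 3 and lowest in replicate 1. In WT replicate 2 they lay 0.09 to 0.14 below the genotype mean on the log2(FPKM + 1) scale, where the median tested gene was at -0.0037. Of all tested genes, 38.9% were lowest among the WT libraries in that replicate and 35.1% were highest. In GARR2KO replicate 2 the 4 genes lay 0.06 to 0.11 above the genotype mean, with the median tested gene at 0.0. There, 33.0% of all tested genes were highest among the GARR2KO libraries. Both of these orders together were found in 713 of 21531 tested genes (3.31%). The order was noticed in the members before it was counted elsewhere, so this share is a description.

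**Figure D4:**
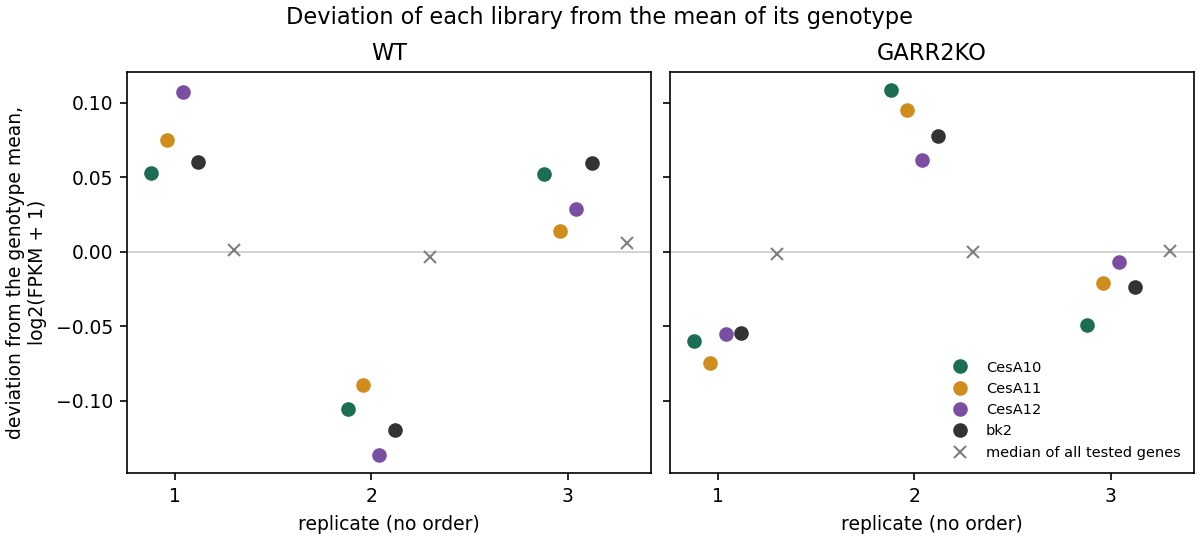
Deviation of each library from the mean of its genotype, in log2(FPKM + 1), for the 4 genes (coloured points) and the median of all tested genes (grey crosses). The 4 genes lie together in each library, 0.09 to 0.14 below 0 in WT replicate 2 and 0.06 to 0.11 above it in GARR2KO replicate 2.

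The likeness of profiles was measured as the root mean square difference of log2(FPKM + 1) over the 6 libraries, each gene centred on its own mean. Against the mean profile of the other 3 members, bk2 stood at rank 8 of 21528 genes, with a difference of 0.0266. CesA12 stood at rank 11 with 0.0297 and CesA11 at rank 77 with 0.0451. CesA10, with its larger genotype difference, stood at rank 951 with 0.0743. The median gene differed from these mean profiles by 0.173 to 0.184. When each genotype was centred on its own mean, so that the genotype difference dropped out, bk2 stood at rank 10, CesA11 at 63, CesA10 at 87 and CesA12 at 158. The nearest single match for CesA10 among the members was then bk2, which stood at rank 17 of 21530 genes around it. These ranks rest on 6 libraries and were not adjusted for the level of a gene.

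Of the genes that fell, the pair most like the mean profile of the cellulose synthases was Zm00001d026018 and Zm00001d036018. Zm00001d026018 had 59.6, 52.7 and 57.5 FPKM in WT and 47.9, 51.8 and 48.7 FPKM in GARR2KO, with a log2 fold change of -0.19 (SE 0.06, limma adjusted p = 0.0301). Zm00001d036018 had 60.3, 53.9 and 57.7 FPKM in WT and 47.8, 51.6 and 49.5 FPKM in GARR2KO, with a log2 fold change of -0.20 (SE 0.06, limma adjusted p = 0.0182). Both were lowest in WT replicate 2 and highest among the GARR2KO libraries in replicate 2, as the members were. They were picked for likeness to the cellulose synthases over these same 6 libraries. Sharing this pattern therefore follows from the choice and is no separate observation. What they encode is not given in the files.

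The identifiers around each member, up to 100 numbers away on either side, were looked at after the members' values had been seen. Rises and falls were counted here only at a limma adjusted p under 0.05, around the members and over all tested genes. Around CesA12, 2 tested genes rose and 7 fell by at least 2-fold on the log2(FPKM + 1) scale. This was 10.1% of 89 tested genes, against 4.01% of all tested genes, and the difference was not tested. CesA12 itself, at -0.15, was not among them. Around CesA10, CesA11 and bk2 the share was 5.06, 4.63 and 3.80%. Of 79 tested genes around CesA10, 24 rose and 13 fell. The counts were 23 and 27 of 108 around CesA11, 23 and 21 of 89 around CesA12 and 14 and 24 of 79 around bk2. Over all tested genes 4322 rose and 5195 fell. The share called was 46.8, 46.3, 49.4 and 48.1% around CesA10, CesA11, CesA12 and bk2, near the 44.2% of all tested genes. That genes with adjacent numbers lie side by side was not tested.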

How the data were processed

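Gene expression in 6 leaf sheath libraries was taken from 1 deposited table per library, not pooled. The authors' deposited values were taken as FPKM, because TopHat2, Cufflinks and Cuffdiff, with the build B73 RefGen_v4, are named in the submitters' processing notes; the files have no header, and the sources used here give no versions, annotation or filters. Reads and gene lengths were recovered from the FPKM steps: all values were whole reads, within 0.02, for 100.0% of the 21531 genes averaging 1 FPKM or more, and library sums were 17721424 to 20719981 reads. Whether a read or a pair was counted is not known. These sums were 97.0 to 100.5% of the library size behind the FPKM in WT and 94.8 to 96.2% in GARR2KO, a difference that enters every level but no ratio within a library. Genotypes were compared by limma-trend on log2(FPKM + 1), in limma 3.58.1 under R 4.3.3, without covariates, with a minimum mean of 1 FPKM and Benjamini-Hochberg adjustment over all 21531 genes, two-sided; fold changes on this scale understate those of low genes. Ratios between members used exact permutation tests (scipy 1.17.1). Recovery and fits were checked on simulated data. Alternatives were pseudocount, filter, scaling, voom on recovered reads, a replicate block, robust moderation and leaving out each library. The named genes are the 4 members and the falling identifiers nearest to the cellulose synthase profile, at most 2; rising ones, far from a falling profile by construction, are not named. Members, lists and tests were chosen with earlier results of these data known. Lists of other wall genes and tissue markers, set by symbol, had 0 matched identifiers and were not tested. No identifier is known here for GARR2, so the labels were not checked on its transcript. The p-values measure the spread between these libraries, and genotype cannot be told apart from any growth or library batch that follows it.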

Additional observations from a re-analysis of the deposited data

How the results depend on the processing

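The direction of all 4 fold changes, and the call of CesA10, held under pseudocount, filter, scaling, voom on recovered reads, replicate block, robust moderation and each library left out; scaling by summed gene reads was added after seeing the data. Leaving out a library gave log2 fold changes of -0.32 to -0.24 for CesA10, -0.15 to -0.07 for CesA11, -0.22 to -0.10 for CesA12 and -0.19 to -0.10 for bk2. Between 1 member and 3 members then fell, 3 without WT replicate 2. Over all genes 7943 to 8847 were called with a library left out, against 9517 in the main test and 7318 to 10610 under the other settings. The difference between genotypes in the log2 ratio of CesA12 to bk2 ran from -0.038 to 0.0021 and changed sign without WT replicate 1. In the likeness to the other members, centring within genotypes moved CesA10 from rank 951 to 87 and CesA12 from 11 to 158; that construction removes the genotype difference. Replicate numbers do not pair the libraries: between WT and GARR2KO, deviations from the genotype mean had correlations over genes of -0.051, -0.046 and 0.049 for numbers 1 to 3. With the replicate block CesA10 remained called (adjusted p = 0.0293, limma) and 8963 genes passed. For the ratios between members, the counting error in a library (1.98 to 2.81%) was about as large as the spread between libraries. Whatever the depth, their exact permutation test cannot go below p = 0.1 with 3 libraries against 3.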
